A study of Mus musculus with 225 samples.

Results

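The 9 genes described here encode receptors of bone morphogenetic proteins (BMPs) and the Smad proteins that carry or dampen their signal in the cell. They were chosen by symbol and are 9 of the 23165 genes in the deposited count table, and each is also among the 10948 genes of the normalized table. There are 3 type I receptors (*Bmpr1a*, *Bmpr1b* and *Acvr1*), 1 type II receptor (*Bmpr2*), 2 receptor-regulated Smads (*Smad1* and *Smad5*), the common Smad *Smad4* and 2 inhibitory Smads (*Smad6* and *Smad7*).

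A dimer of BMP ligands brings type I and type II receptors together at the cell surface, and the type II receptor phosphorylates the type I receptor, which then phosphorylates the receptor-regulated Smads. These bind Smad4, enter the nucleus and regulate target genes such as the *Id* and *Msx* genes, while Smad6 and Smad7 block the relay at the receptors or at the Smads. In the limb bud, BMP signalling takes part in cartilage condensation, in the patterning of digits and in cell death between them.

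Single cells were taken from forelimbs of mouse embryos at E12.5, from the autopod, which forms the digits, and from the zeugopod, which forms the forearm. All embryos were heterozygous for *Hoxd11::GFP*, a GFP reporter knocked into *Hoxd11*, on a mixed C57Bl6CBAF1 background, so that each cell of both tissues also carried 1 altered *Hoxd11* allele. Cells of several embryos were pooled, the cells with the brightest GFP were sorted, and single cells were captured on a Fluidigm C1 chip, where the polyadenylated RNA of each cell was copied in its own chamber, before sequencing in 3 runs. The study retained 59 autopod cells of run NXT0072, 17 autopod cells of NXT0143, 58 zeugopod cells of NXT0142 and 65 from the zeugopod in NXT0143, and 26 further captured cells were not retained. The labels name no embryo for a cell, so each tissue counts as 1 pooled sample without replicates, and groups were compared without a test. Run and tissue cannot be told apart except within NXT0143, which held cells of both.

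Retained cells had between 186271 and 9437447 reads on genes, with group medians from 2641867 to 4048526, and median numbers of genes with at least 1 read from 3528 to 4283.5. At least 3 of 5 markers of limb mesenchyme had 5 reads in 31 of the 59 autopod cells of NXT0072, in 5 of the 17 of NXT0143, in 42 of the 58 zeugopod cells of NXT0142 and in 30 of the 65 of NXT0143. The summed level of the 3 autopod markers (*Hoxd13*, *Hoxa13* and *Msx1*) had medians of 2182 and 203 reads per 1000000 reads on genes (CPM) in autopod cells of NXT0072 and NXT0143 and of 0 in both zeugopod groups. The 3 zeugopod markers (*Shox2*, *Meox2* and *Hoxa11*) had medians of 0 in both autopod groups, and of 143 and 574 CPM in zeugopod cells of NXT0142 and NXT0143. At least 2 of 3 tendon markers had 5 reads in 11 of the 58 and 6 of the 65 zeugopod cells of these runs but in 0 of the 59 and 0 of the 17 autopod cells, and their part in the differences between tissues was not tested. No cell had the required number of muscle, epithelial, endothelial, blood or macrophage markers, although of the 4 blood markers the table held 1, and the summed level of the 5 epithelial markers reached 1442, 0, 1741 and 988 CPM in single cells of the 4 groups.

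Detection of a gene means 5 reads or more in the cell. Each share of cells is followed by its 95% interval (exact binomial, Clopper-Pearson), which covers the sampling of cells only. It leaves out the spread between embryos, pools and runs. Cells are not replicates of a tissue, so intervals that overlap or lie apart are no test between tissues. Intervals of sums of reads (exact Poisson) cover counting error only. The reads carry no molecular identifiers, and a single captured molecule can give many reads. Levels are the deposited normalized values, corrected for spike-in RNA and for gene length. Means over cells are of log2(normalized value + 1), so that a difference of means understates the change of a gene with low values.

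Each of the 9 genes was undetected in part of the cells of every group, and *Smad6* was the least detected Smad in all 4. *Bmpr1a* was detected in 50 autopod and 68 zeugopod cells, whereas *Smad6* was detected in 9 autopod and 3 zeugopod cells. In autopod cells a median of 4 of the 9 genes was detected in both runs, against 3 in the zeugopod of NXT0142 and 2 in that of NXT0143. The plot of levels in single cells shows this as a band of cells at the floor of the scale and a wide scatter above it for every gene.

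**Figure D1:**
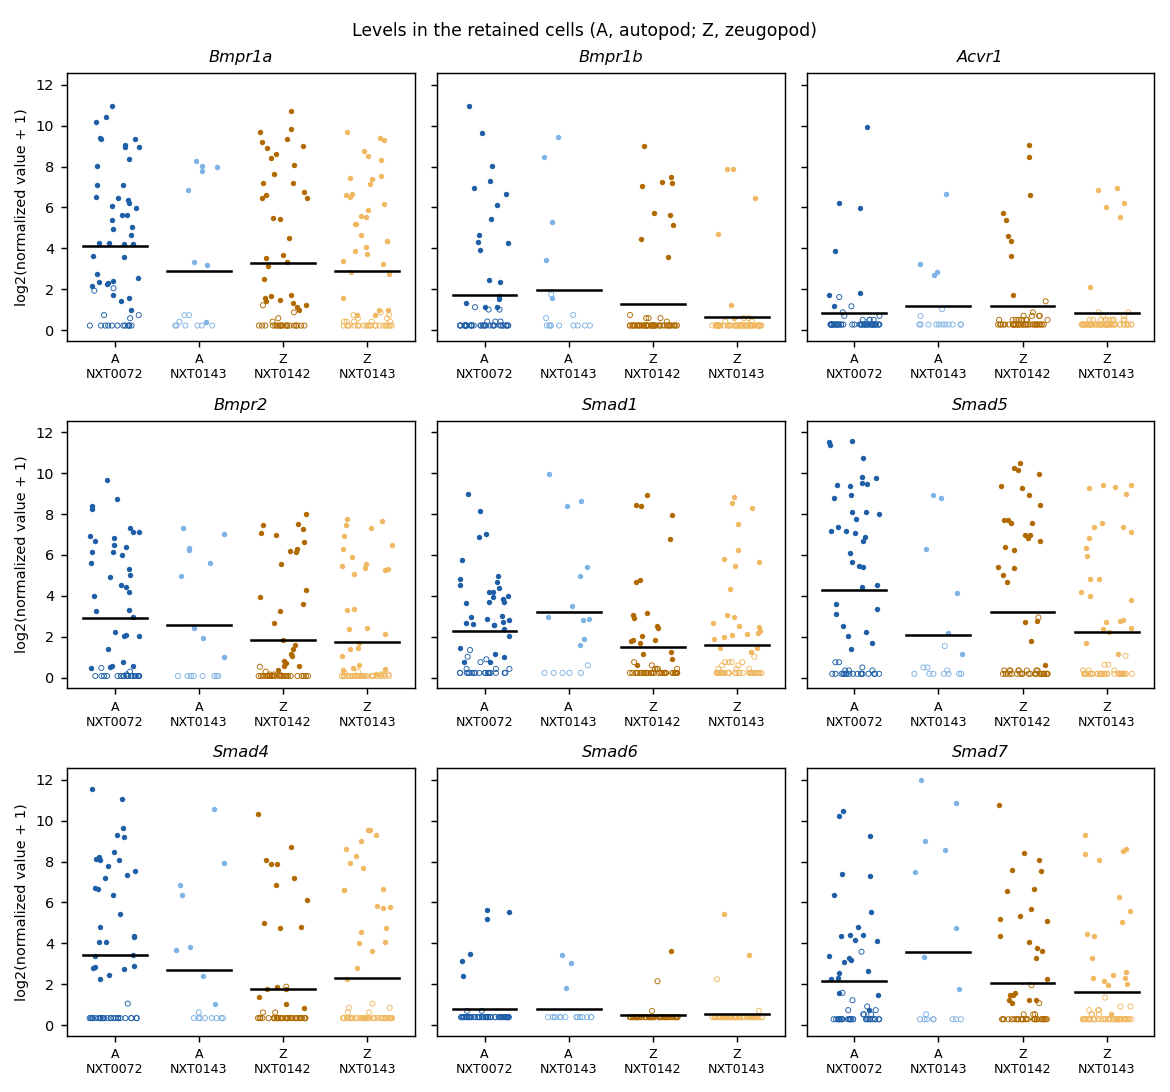
Level of each of the 9 genes in each retained cell, as log2(normalized value + 1), by tissue (A, autopod; Z, zeugopod) and run; filled points are cells with at least 5 reads, open points cells with fewer, and black lines the means over all cells of a group. Detected cells of every gene but *Smad6* spread over several log2 units in all groups, and *Smad6* has at most 6 detected cells in a group.

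The type I receptors carry, just before their kinase domain, a stretch rich in serine and glycine in which the type II receptor phosphorylates them. The coding bases of this stretch are shown because they set the type I receptors apart from *Bmpr2*. Capitals mark 6 codons that alternate between serine and glycine, found on the coding strand of the GENCODE M21 transcripts (GRCm38). Each stretch lies in 1 exon on the minus strand, at chr14:34429662-34429691 for *Bmpr1a*, chr3:141862989-141863018 for *Bmpr1b* and chr2:58474225-58474254 for *Acvr1*.
Bmpr1a: caaagcTCTGGGAGTGGATCTGGAttgcct
Bmpr1b: cagagcTCGGGAAGTGGATCAGGCctccct
Acvr1: tgtacaTCAGGAAGTGGCTCCGGTcttcct
Such a run of 6 codons occurred in 37 of 21379 protein-coding genes (0.173%), and in none of the other members, *Bmpr2* included.

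*Bmpr1a* (chromosome 14, 34410734 to 34503341) was the most often detected type I receptor in every group. It was detected in 71.2% of autopod cells of NXT0072 (42 of 59, 57.9% to 82.2%) and in 47.1% of those of NXT0143 (8 of 17, 23% to 72.2%), and in 58.6% (34 of 58, 44.9% to 71.4%) and 52.3% (34 of 65, 39.5% to 64.9%) of zeugopod cells of NXT0142 and NXT0143. All of these intervals overlap. The normalized value in detected autopod cells ran from 0.99 over a median of 44.3 to 1989 in NXT0072 and from 0.33 over 165 to 309 in NXT0143. In detected zeugopod cells it ran from 0.99 over 64.4 to 1690 in NXT0142 and from 0.66 over 39.9 to 822 in NXT0143, so that the ranges of the groups lie over each other. Mean log2 levels over all cells were 4.09 ± 3.32 (SD over 59 cells), 2.88 ± 3.40 (17), 3.30 ± 3.51 (58) and 2.91 ± 3.12 (65) in the same order. Within NXT0143 autopod and zeugopod cells differed by −0.03, while over all cells the autopod mean was 0.72 above that of the zeugopod, and autopod NXT0143 lay 1.21 below autopod NXT0072.

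*Bmpr1b* (chromosome 3, 141837136 to 142169425), the type I receptor known for its role in digit cartilage, was found in fewer cells. The shares were 32.2% (19 of 59, 20.6% to 45.6%) and 29.4% (5 of 17, 10.3% to 56%) in autopod cells of NXT0072 and NXT0143, and 17.2% (10 of 58, 8.6% to 29.4%) and 9.2% (6 of 65, 3.5% to 19%) in zeugopod cells of NXT0142 and NXT0143. With runs added up, the share was 31.6% in the autopod (24 of 76 cells, 21.4% to 43.3%) and 13% in the zeugopod (16 cells, 7.6% to 20.3%). This sum mixes run with tissue, and within NXT0143 the intervals overlap. After each cell was thinned to 500000 reads the shares were 23.6% (17 of 72) and 10.9% (13 cells), with intervals of 14.4% to 35.1% and 5.9% to 18% that overlap. Where it was detected, the normalized value ran from 1.17 over a median of 18.6 to 1989 in autopod cells of NXT0072 and from 2.01 over 38 to 699 in those of NXT0143. In the detected zeugopod cells the value ran from 10.9 over 90.6 to 518 in NXT0142 and from 0.50 over 56.6 to 231 in NXT0143. The zeugopod range thus started below the autopod one, at 0.50, and ended within it.

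Mean log2 levels of *Bmpr1b* were 1.72 ± 2.67 (SD over 59 cells) and 1.96 ± 2.98 (17) in the autopod and 1.29 ± 2.37 (58) and 0.66 ± 1.60 (65) in the zeugopod. The autopod mean was 1.30 above that of the zeugopod within NXT0143 and 0.43 above it between NXT0072 and NXT0142. Single cells weighed heavily in these values. One cell held 60.9% of the 6259 reads of *Bmpr1b* in the 17 autopod cells of NXT0143, and without it the difference within that run was 0.83. *Bmpr1b* passed the filter of 25% of cells through the autopod alone.

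*Acvr1* (chromosome 2, 58388644 to 58567157), also called ALK2, was the least detected receptor in 3 groups and tied with *Bmpr1b* in zeugopod cells of NXT0143. This order depends on the limit of 5 reads. At 1 read, *Acvr1* was in more zeugopod cells than *Bmpr1b* (30 against 17 of 58 and 23 against 13 of 65). In the autopod it was in fewer (21 against 28 of 59 and 6 against 9 of 17). Its share of cells was 11.9% (7 of 59, 4.9% to 22.9%) and 23.5% (4 of 17, 6.8% to 49.9%) in the autopod and 15.5% (9 of 58, 7.3% to 27.4%) and 9.2% (6 of 65, 3.5% to 19%) in the zeugopod, in the order of runs used above. In the cells that had it, the normalized value ran from 1.24 over 13.8 to 974, from 5.57 over 7.22 to 98.2, from 2.27 over 41.1 to 538 and from 3.30 over 67.7 to 123.6, and all 4 ranges overlap. Between 39.8% and 56% of its reads in a group came from 1 cell. It was the only member with an autopod mean below that of the zeugopod over all cells, by a difference of −0.08 (−0.42 to −0.01 over 7 alternatives). The direction was not the same by run, at 0.35 within NXT0143 (0.08 to 0.59) and −0.34 between NXT0072 and NXT0142 (−0.72 to −0.17). *Acvr1* did not pass the filter used for comparisons.

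*Bmpr2* (chromosome 1, 59763400 to 59879014), the type II receptor, has the longest exon length of the 9 genes at 17997 bases. It was detected in 61% of autopod cells of NXT0072 (36 of 59, 47.4% to 73.5%) and 52.9% of those of NXT0143 (9 of 17, 27.8% to 77%). In zeugopod cells the shares were 44.8% in NXT0142 (26 of 58, 31.7% to 58.5%) and 43.1% in NXT0143 (28 of 65, 30.8% to 56%). Both autopod shares were above both zeugopod shares, with intervals that overlap. Among detected cells the normalized value ran from 0.39 over 30.2 to 811, from 1.0 over 47 to 160, from 0.28 over 12.8 to 252 and from 0.11 over 20.7 to 216. The mean log2 level was 2.90 ± 3.04 (SD over 59 cells) and 2.56 ± 2.93 (17) in the autopod and 1.83 ± 2.65 (58) and 1.73 ± 2.55 (65) in the zeugopod. The autopod lay above the zeugopod by 0.83 within NXT0143 and by 1.06 between NXT0072 and NXT0142. Runs of 1 tissue differed less, by −0.34 in the autopod and by −0.10 in the zeugopod, NXT0143 minus the other run.

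**Figure D2:**
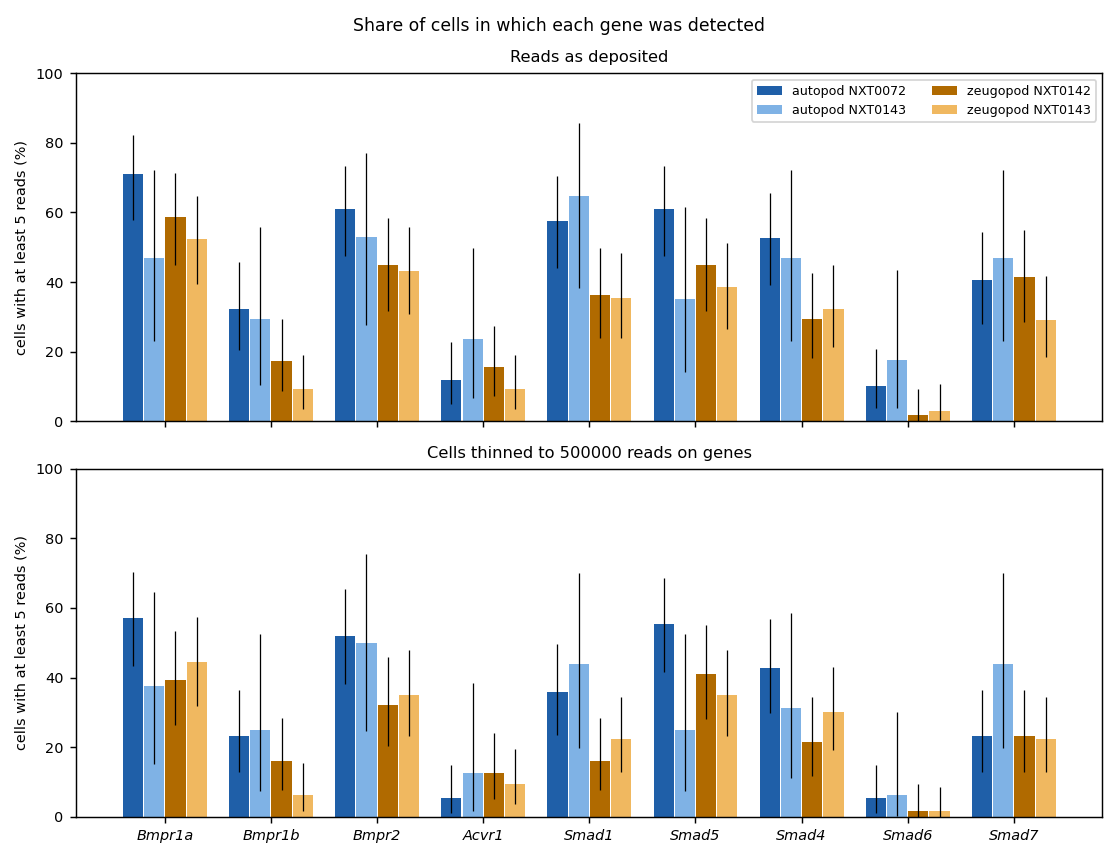
Share of cells of each group with at least 5 reads of each gene, with exact binomial 95% intervals, for the reads as deposited (top) and for cells thinned to 500000 reads on genes (bottom). In the top panel, bars of *Bmpr1a*, *Bmpr2*, *Smad1*, *Smad5*, *Smad4* and *Smad7* lie between 29.2% and 71.2%. Those of *Acvr1* and *Smad6* lie between 1.7% and 23.5%. Thinning lowers most bars, as for *Smad1* in autopod cells of NXT0072 from 57.6% to 35.7%, and in zeugopod cells of NXT0142 *Smad1* falls to 16.1%.

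*Smad1* and *Smad5* are phosphorylated by the type I receptors at serines at the very end of the protein. The last 30 coding bases are shown because they separate these 2 genes from the inhibitory *Smad6*, with the serine codons among the last 4 codons in capitals. They lie at chr8:79339652-79339681 on the minus strand (*Smad1*), chr13:56737446-56737475 on the plus strand (*Smad5*) and chr9:63953527-63953556 on the minus strand (*Smad6*) of GRCm38.
Smad1: tcaccccacaatcctattTCATCCgtgTCT
Smad5: tctccgctgaaccccattTCTTCTgttTCA
Smad6: tggctggagatcctactcaacaaccacaga
At least 3 serine codons among the last 4 were present in 0.472% of the 21379 protein-coding genes. *Smad1* and *Smad5* have 3 each, *Smad6* and *Smad4* have 0, and *Smad7* has 1.

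*Smad1* (chromosome 8, 79338395 to 79399518) was more often detected in autopod than in zeugopod cells of either run. The autopod shares were 57.6% (34 of 59, 44.1% to 70.4%) in NXT0072 and 64.7% (11 of 17, 38.3% to 85.8%) in NXT0143, and the zeugopod shares were 36.2% (21 of 58, 24% to 49.9%) in NXT0142 and 35.4% (23 of 65, 23.9% to 48.2%) in NXT0143. With runs added up, the share was 59.2% in the autopod (47.3% to 70.4%) and 35.8% in the zeugopod (27.3% to 44.9%). This sum mixes run with tissue, and within NXT0143 the intervals overlap. After thinning, the summed shares were 37.5% (26.4% to 49.7%) and 19.3% (12.7% to 27.6%), with intervals that overlap. Levels in detected cells were mostly low. The normalized value ran from 0.69 over a median of 11.8 to 511 in autopod cells of NXT0072, from 2.06 over 10.3 to 997 in those of NXT0143, from 0.52 over 4.81 to 480 in zeugopod cells of NXT0142 and from 1.37 over 5.32 to 461 in those of NXT0143. Mean log2 levels of 2.29 ± 2.23 (SD over 59 cells) and 3.22 ± 3.22 (17) in the autopod stood above 1.5 ± 2.32 (58) and 1.61 ± 2.29 (65) in the zeugopod. This is a difference of 1.61 within NXT0143 and of 0.79 between NXT0072 and NXT0142.

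*Smad5* (chromosome 13, 56703010 to 56742377) gave the most reads of the 9 genes, 129112 in autopod cells of NXT0072 (exact Poisson 95% interval 128409 to 129818, counting error only). It was detected in 61% of these cells (36 of 59, 47.4% to 73.5%) but in 35.3% of autopod cells of NXT0143 (6 of 17, 14.2% to 61.7%). Zeugopod shares were 44.8% (26 of 58, 31.7% to 58.5%) in NXT0142 and 38.5% (25 of 65, 26.7% to 51.4%) in NXT0143. In detected cells the normalized value ran from 1.64 over 142 to 3001, from 1.23 over 46.2 to 483, from 0.55 over 125.4 to 1452 and from 1.23 over 27.6 to 695 in the order of groups used above. Both groups of NXT0143 thus had the lower median levels. Mean log2 levels were 4.27 ± 3.98 (SD over 59 cells), 2.09 ± 3.04 (17), 3.20 ± 3.70 (58) and 2.22 ± 3.04 (65). The tissues differed by −0.13 within NXT0143, and by 1.07 between NXT0072 and NXT0142. Autopod cells of NXT0143 lay 2.18 below those of NXT0072, where 1.35% of the genes that passed the filter had a lower difference, and zeugopod cells of NXT0143 lay 0.98 below those of NXT0142. For *Smad5* the gap between runs was therefore larger than the gap between tissues within a run.

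*Smad1* and *Smad5* were found together in 22 of the 59 autopod cells of NXT0072, while 12 had *Smad1* alone, 14 had *Smad5* alone and 11 had neither. Of the 17 autopod cells of NXT0143, 4 had both. In the zeugopod 11 of 58 cells of NXT0142 and 10 of 65 of NXT0143 had both, and 22 and 27 had neither. One or the other was thus detected in 80.3% of autopod cells (61 of 76, 69.5% to 88.5%) and 60.2% of zeugopod cells (74 cells, 50.9% to 68.9%), and after thinning in 65.3% (53.1% to 76.1%) and 52.1% (42.8% to 61.3%), where the intervals overlap.

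*Smad4* (chromosome 18, 73639009 to 73703780), the partner that receptor-regulated Smads of both the BMP and the TGF-beta branch bind, was detected in 52.5% of autopod cells of NXT0072 (31 of 59, 39.1% to 65.7%) and 47.1% of those of NXT0143 (8 of 17, 23% to 72.2%). In zeugopod cells it was detected in 29.3% (17 of 58, 18.1% to 42.7%) and 32.3% (21 of 65, 21.2% to 45.1%). The autopod shares were the higher ones in both runs, with intervals that overlap those of the zeugopod. The normalized value in detected cells ran from 3.76 over 100.6 to 3008 and from 1.07 over 47.6 to 1536 in the autopod, and from 0.80 over 30.9 to 1276 and from 3.76 over 96.3 to 758 in the zeugopod. Mean log2 levels were 3.42 ± 3.51 (SD over 59 cells), 2.71 ± 3.30 (17), 1.77 ± 2.71 (58) and 2.31 ± 3.08 (65). The difference between tissues was 1.65 between NXT0072 and NXT0142 and 0.39 within NXT0143. In the 17 autopod cells of NXT0143, 1 cell held 81.9% of the 4885 reads, and over the alternatives the difference within this run ranged from −0.10 to 0.57.

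*Smad6* (chromosome 9, 63953076 to 64022059), an inhibitor that acts mainly on the BMP branch, was the rarest of the 9 genes. Autopod cells with at least 5 reads numbered 6 of 59 in NXT0072 (10.2%, 3.8% to 20.8%) and 3 of 17 in NXT0143 (17.6%, 3.8% to 43.4%). In the zeugopod there was 1 such cell of 58 in NXT0142 (1.7%, 0.0% to 9.2%) and 2 of 65 in NXT0143 (3.1%, 0.4% to 10.7%). The sums of reads were 426 (386.5 to 468.4, exact Poisson 95% interval), 53 (39.7 to 69.3), 39 (27.7 to 53.3) and 262 (231.2 to 295.7), and 1 cell gave 94.9% and 91.2% of them in the 2 zeugopod groups. In detected autopod cells the normalized value ran from 4.36 over 22.9 to 48.3 in NXT0072 and from 2.49 over 7.16 to 9.96 in NXT0143, and the 3 zeugopod cells had 11.5, 9.96 and 41.7. Mean log2 levels lay between 0.48 and 0.81 in the 4 groups, close to the floor, and this gene did not pass the filter. With runs added up, *Smad6* was detected in 11.8% of autopod cells (9 of 76, 5.6% to 21.3%) and 2.4% of zeugopod cells (3 cells, 0.5% to 7.0%), with intervals that overlap. Autopod means were above zeugopod means by 0.26 within NXT0143 and 0.31 between NXT0072 and NXT0142. Both were above 0 in all 7 alternatives, among which leaving out cells with markers of other cell types removed no cell.

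*Smad7* (chromosome 18, 75367529 to 75395935), which dampens both the BMP and the TGF-beta branch and is itself induced by them, was found in similar shares of cells in 3 groups. They were 40.7% (24 of 59, 28.1% to 54.3%) and 47.1% (8 of 17, 23% to 72.2%) in the autopod and 41.4% (24 of 58, 28.6% to 55.1%) in the zeugopod of NXT0142, against 29.2% (19 of 65, 18.6% to 41.8%) in the zeugopod of NXT0143. In detected cells the normalized value ran from 0.66 over 16.9 to 1412, from 2.43 over 276 to 4004, from 1.10 over 17.8 to 1722 and from 0.44 over 19.4 to 625. The 8 detected autopod cells of NXT0143 thus had the highest median level. Mean log2 levels were 2.16 ± 2.67 (SD over 59 cells), 3.56 ± 4.28 (17), 2.08 ± 2.70 (58) and 1.63 ± 2.46 (65). Autopod minus zeugopod was 1.93 within NXT0143 and 0.08 between NXT0072 and NXT0142, and autopod cells of NXT0143 lay 1.41 above those of NXT0072.

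The autopod cells of NXT0143 also stood apart in genes that respond to tissue dissociation and stress. The summed level of 9 such genes (*Fos*, *Fosb*, *Jun*, *Junb*, *Egr1*, *Atf3*, *Ier2*, *Hspa1a* and *Hspa1b*) had a median of 11708 CPM there (2304 to 21535), against 3399 (0 to 16418) in autopod cells of NXT0072 and 1829 (0 to 12376) and 3629 (0 to 26498) in zeugopod cells of NXT0142 and NXT0143. All 9 were above the filter, though 4 of them passed it through autopod cells alone. None was at 0 reads over a group. Within NXT0143, 8 of the 9 were higher in the autopod by at least 1 (log2), where 18.4% of all genes tested were, and between NXT0072 and NXT0142 5 were higher and 1 lower, where 6.64% and 24.3% of genes were. Their part in the level of *Smad7*, and in that of the other members in this group, was not tested.

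By mean log2 level, *Bmpr1a* took rank 1 to 3 in every group, *Acvr1* rank 7 or 8 and *Smad6* rank 9. *Smad5* had rank 1 in autopod cells of NXT0072 and rank 6 in those of NXT0143, and *Smad7* had rank 1 in autopod cells of NXT0143 and rank 3 to 6 in the others. The largest gap between 2 neighbours was 1.13 on the log2 scale, and all 32 gaps were smaller than the larger SD over single cells of the 2 genes concerned. That SD is wider than the error of a mean, and with 1 pooled sample for each tissue the spread of the order between samples is not known.

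Autopod minus zeugopod differences were set beside those of all 4898 genes detected in 25% or more of autopod or of zeugopod cells, a filter that 7 of the 9 members passed. With 1 pooled sample for each tissue, a fixed difference of at least 1 on the log2 scale was used in place of a test. Over all retained cells 3 of the 7 members, *Bmpr2* (1.04), *Smad5* (1.10) and *Smad4* (1.20), were higher in the autopod by this measure, where 6.06% of genes were, and 0 were lower, where 13.4% of genes were. Within NXT0143 *Bmpr1b* (1.30), *Smad1* (1.61) and *Smad7* (1.93) were higher, where 18.4% of genes were, and 0 were lower, where 9.21% were. Between NXT0072 and NXT0142, where run and tissue cannot be told apart, *Bmpr2* (1.06), *Smad5* (1.07) and *Smad4* (1.65) were higher, where 6.64% of genes were, and 0 were lower, where 24.3% were. The comparison over all cells contains the cells of both others, so its values are no independent set.

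In the 2 comparisons that share no cell, 0 members were past the limit in both by the normalized values, where 1.98% of all genes tested were higher in both. *Bmpr2* came closest on this scale, at 0.83 and 1.06. On log2(CPM + 1), *Smad1* was past it in both, at 1.59 and 1.03, where 1.96% of genes were, and *Bmpr2* stood at 0.71 and 1.35. Of all 9 members, 7 had a difference above 0 within NXT0143, where 58.9% of genes tested did, and 8 between NXT0072 and NXT0142, where 34.4% did. The median over the 7 members that passed the filter was 0.83 and 0.79, beside 0.18 and −0.34 for all genes tested. Among these members, *Bmpr1b* passed through its autopod cells alone, so that its higher detection there over all cells was set by the filter. Within NXT0143 *Bmpr1a* (−0.03) and *Smad5* (−0.13) lay below the median of all genes. Per read rather than per spike-in, that is as log2(CPM + 1), the median of all genes moved from 0.18 to −0.02 within NXT0143. The genes higher by at least 1 fell from 66.6% to 52.1% of those past the limit in either direction. The number of members higher by at least 1 in this run was 3 on both scales. The share of cells with a gene and the amount of RNA in each cell cannot be told apart in these values.

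**Figure D3:**
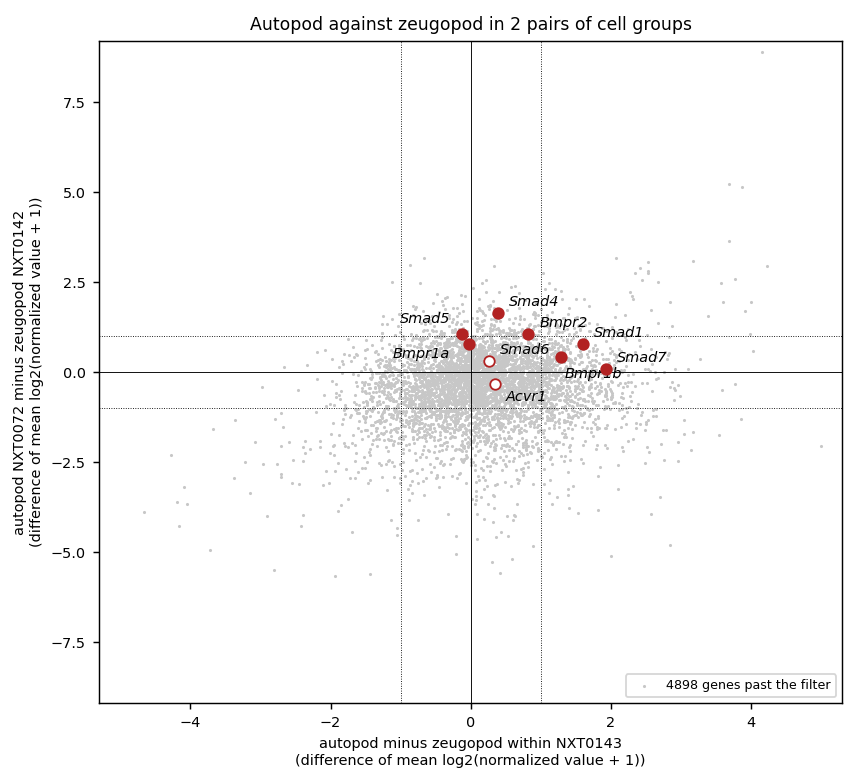
Autopod minus zeugopod difference of mean log2(normalized value + 1) within NXT0143 (horizontal) and between autopod NXT0072 and zeugopod NXT0142 (vertical) for the 4898 genes past the filter (grey), with the 7 members that passed it as filled red points and *Acvr1* and *Smad6* as open red points; dotted lines mark a difference of 1. *Smad4*, *Smad5* and *Bmpr2* lie above the upper line, *Smad1*, *Bmpr1b* and *Smad7* to the right of the right-hand line, and none in the corner past both on this scale.

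Runs within a tissue gave differences of the same order. In the autopod, NXT0143 minus NXT0072, *Smad7* (1.41) was higher, where 22.2% of genes were, and *Bmpr1a* (−1.21) and *Smad5* (−2.18) were lower, where 11.8% of genes were. In the zeugopod, NXT0143 minus NXT0142, 0 of the 7 members were higher, where 1.1% of genes were, and 0 were lower, where 15.1% were, with the largest difference in *Smad5* (−0.98). Of the genes past the limit in the zeugopod, 6.82% were higher in NXT0143 by the normalized values and 26.9% by CPM. For *Bmpr1a* and *Smad5* the gap between the autopod runs was wider than any of their differences between tissues, and for *Smad7* it was 1.41 beside 1.93 within NXT0143.

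A BMP signal passes through several kinds of these proteins in the same cell. A type I receptor was detected in 78.9% of autopod cells (60 of 76, 68.1% to 87.5%) and 66.7% of zeugopod cells (82 cells, 57.6% to 74.9%). A type I receptor, *Bmpr2*, *Smad1* or *Smad5*, and *Smad4* were all detected in 14 of 59 autopod cells of NXT0072 (23.7%, 13.6% to 36.6%) and 6 of 17 of NXT0143 (35.3%, 14.2% to 61.7%). In the zeugopod this held for 4 of 58 cells of NXT0142 (6.9%, 1.9% to 16.7%) and 6 of 65 of NXT0143 (9.2%, 3.5% to 19%). With runs added up, the share was 26.3% in the autopod (16.9% to 37.7%) and 8.1% in the zeugopod (4.0% to 14.4%). This sum mixes run with tissue, and within NXT0143 the intervals overlap. In thinned cells the shares were 13.9% (10 of 72, 6.9% to 24.1%) and 3.4% (4 cells, 0.9% to 8.4%), and the intervals overlap. A cell without the full set by this count may still have had all transcripts, since capture misses molecules. The count covers the members only, and other receptors of the TGF-beta family and *Smad9* were left out of it.

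*Bmpr1a* and *Bmpr1b* were detected together in 14 of the 59 autopod cells of NXT0072 and 2 of the 17 of NXT0143, and in 5 of 58 and 4 of 65 zeugopod cells of NXT0142 and NXT0143. *Bmpr1a* alone of this pair was the most frequent state among cells with either gene in all 4 groups (28, 6, 29 and 30 cells), and *Bmpr1b* alone was found in 5, 3, 5 and 2. An inhibitory Smad was detected in 51.3% of autopod cells (39 of 76, 39.6% to 63%) and 36.6% of zeugopod cells (45 cells, 28.1% to 45.7%), in most of them *Smad7*. *Smad6* and *Smad7* were found together in 1, 1, 0 and 1 cells.

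The number of members detected in a cell moved with the number of genes detected in it. Spearman's rho across cells was 0.61 in the 59 autopod cells of NXT0072, 0.65 in the 17 of NXT0143, 0.32 in the 58 zeugopod cells of NXT0142 and 0.20 in the 65 of NXT0143. In each group the 2 counts share the same library. In thinned cells rho was 0.31, 0.61, 0.15 and 0.08, and the median number of members was 3 and 2 in the autopod against 2 and 2 in the zeugopod, so that the medians within NXT0143 were equal. The means were 3.0 and 2.75 against 2.04 and 2.06, and the median numbers of genes 2687 and 3184 against 3238 and 2952.

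**Figure D4:**
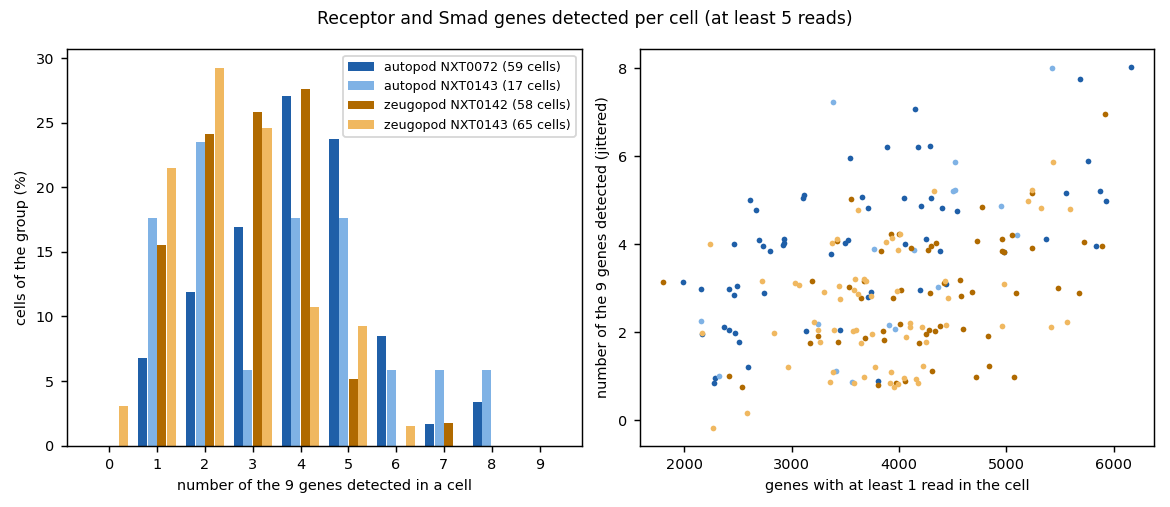
Left, the percent of cells of each group in which 0 to 9 of the genes had at least 5 reads; right, the number of these genes against the number of genes with at least 1 read, 1 point for each cell, jittered vertically. The autopod groups reach 8 genes in a cell, the zeugopod groups 7 in NXT0142 and 6 in NXT0143, and cells with more genes detected tend to have more members in autopod cells.

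Autopod cells of NXT0072 were also grouped by their *Hoxd* genes, by the study's rule, under which a gene is on when its normalized value is 5 or more and not under 5% of that of the strongest *Hoxd* gene in the same cell. The combinations with at least 5 cells were *Hoxd13* alone (16 cells), *Hoxd13* with *Hoxd11* (11), with *Hoxd10* (9), with *Hoxd12*, *Hoxd11* and *Hoxd10* (8) and with *Hoxd11* and *Hoxd10* (5). Medians of members per cell were 3, 4, 5, 4.5 and 4 in this order, and in thinned cells 2, 3, 4, 3 and 3.5. *Bmpr2* was detected in 6 of 16, 6 of 11, 8 of 9, 6 of 8 and 4 of 5 cells, and in thinned cells in 4 of 14, 5 of 11, 7 of 9, 6 of 8 and 2 of 4. *Smad4* was detected in 8 of 16, 4 of 11, 4 of 9, 7 of 8 and 2 of 5, but after thinning in 3 of the 8 cells with *Hoxd10* to *Hoxd13* on. Those 8 cells had a median of 5865750 reads and 5564 genes, against 1878970 reads and 3139.5 genes in the 16 cells with *Hoxd13* alone. The groups are small and the ranges of every member overlap between combinations.

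Across cells the members varied with little relation to each other. A partial Spearman correlation given the number of genes detected, averaged over the 4 groups, ran from −0.14 to 0.20 over the 36 pairs of members, with a median of 0.00, and in none reached 0.3 by this measure, without the correction for genes detected or on CPM. The highest value was that of *Smad4* with *Smad7* (0.27, 0.11, 0.23 and 0.20 by group), followed by *Bmpr2* with *Smad4* (0.18). The 2 receptor-regulated Smads gave 0.04 and *Bmpr1a* with *Bmpr1b* −0.08. In sparse counts with cells of shared libraries such weak values are a description of these cells.

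Of the correlations of the 9 members with 13 partner genes (of 14 listed, 1 was not in the normalized table), 4 reached a mean of 0.3, *Smad7* with *Id1* (0.35), *Msx2* (0.32) and *Id3* (0.31), all BMP targets, and *Bmpr1b* with *Sox9* (0.34), the regulator of cartilage fate. On CPM the 3 values of *Smad7* fell to 0.24, 0.29 and 0.23, and 1 of the 4, *Bmpr1b* with *Sox9* (0.33), still reached 0.3. The value with *Msx2* includes the zeugopod groups, where 1.72% and 1.54% of cells had this gene. The lowest was *Bmpr1b* with the ligand gene *Bmp4* (−0.36, and −0.43, −0.62, −0.29 and −0.12 by group). *Bmp4* was detected in 13.6%, 5.88%, 25.9% and 16.9% of cells in these groups, so that most cells had fewer than 5 reads of it. By group, *Bmpr1b* with *Sox9* gave 0.45 and 0.48 in the autopod and 0.30 and 0.12 in the zeugopod. Cells with at least 3 of 5 cartilage markers numbered 27 of 59 and 8 of 17 in the autopod and 19 of 58 and 19 of 65 in the zeugopod. *Sox9* is itself among these markers, and they did not all go the same way. *Sox9* and *Col9a1* were in larger shares of autopod cells. *Col2a1* was in 49.2% and 82.4% of autopod cells against 93.1% and 89.2% of zeugopod cells, and *Matn1* was detected in zeugopod cells of NXT0143 only. The part of cartilage cells in the level of *Bmpr1b* was not tested.

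Among 4880 genes, those with the pattern most like that of a member were sought by the same mean partial correlation. For *Bmpr1b* they were *Rasl11b* (0.36), *Sox9* (0.34) and *Sox6* (0.33), the last known for its part in cartilage formation, and for *Smad7* they were *Fos* (0.36), *Ier2* (0.35) and *Id1* (0.35). *Bmpr2* had *H3f3a* (0.34), *Hoxd11* (0.33) and *Calm2* (0.32), *Smad4* had *Hcfc1* (0.33), *Chka* (0.32) and *Gtf3c2* (0.31), and *Smad5* had *Clcn5* (0.34). For *Bmpr1a* and *Smad1* no gene reached 0.3. Of these 13 values 4 reached 0.3 on CPM as well, namely *Bmpr1b* with *Rasl11b* (0.37) and *Sox9* (0.33), *Smad4* with *Chka* (0.32) and *Bmpr2* with *H3f3a* (0.30), while the 3 of *Smad7* fell to 0.27, 0.29 and 0.24. As the highest of 4880 values, these are high by selection, and many rested on the 17 autopod cells of NXT0143, as for *Bmpr2* with *Hoxd11*, at 0.74 there and 0.13 to 0.24 in the other groups.

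Of 11 BMP targets, a list that includes *Smad6* and *Smad7*, 8 passed the filter. However, 4 of them, *Id4*, *Msx1*, *Msx2* and *Bambi*, passed it through autopod cells alone. Their higher share of detected cells in the autopod over all cells was therefore set by the filter. *Msx1* is also 1 of the 3 autopod markers used above. The 4 others were *Id1*, *Id2*, *Id3* and *Smad7*. Of the 8 targets, 7 were higher in the autopod by at least 1 within NXT0143, where 18.4% of all genes were. Between NXT0072 and NXT0142 this held for 6, where 6.64% of genes were. *Bambi* stood at 0.90 in the first comparison, and *Id4* at 0.51 and *Smad7* at 0.08 in the second. *Id2* was higher by 3.87 and 5.15, *Msx1* by 3.69 and 5.24, *Id1* by 3.69 and 3.64 and *Id3* by 2.54 and 2.80 in these 2 comparisons. *Id1* was detected in 94.9% and 100% of autopod cells and 77.6% and 73.8% of zeugopod cells, so its detection ran well above that of every receptor. The 9 genes of dissociation and stress described above had medians of 2.88 and 1.03 in the same comparisons. They did not all move with these targets. Between NXT0072 and NXT0142, 5 were higher by at least 1, while *Jun* stood at −1.21, *Junb* at −0.01 and *Atf3* at 0.08. The part of these genes in the levels of the BMP targets was not tested.

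Of 13 other receptors and co-receptors of the TGF-beta family 4 passed the filter, and *Tgfbr3*, the co-receptor betaglycan, had differences of −2.39 and −3.97 and passed through zeugopod cells alone. Of the other Smads, *Smad2* and *Smad3* of the TGF-beta branch passed, with differences of 0.64 and 1.03 and of 0.50 and −0.01, and *Smad9*, a further receptor-regulated Smad of the BMP branch, was detected in at most 3.39% of the cells of a group. Of 23 modulators of Smads 16 passed, 4 of them through the autopod alone. Within NXT0143, 6 of the 16 were higher and 2 lower, where 18.4% and 9.21% of all genes were, and between NXT0072 and NXT0142, 1 was higher and 3 lower, where 6.64% and 24.3% were. *Tob1*, which binds receptor-regulated Smads, was the 1 modulator past the limit in the same direction in both (2.07 and 1.53). Of 14 ligands and antagonists 2 passed, *Twsg1* (0.93 and 1.52) and *Nbl1* (−0.77 and −2.80), and neither was past the limit in both. *Nbl1* passed through zeugopod cells alone.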

How the data were processed

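The authors mapped reads with bowtie2 in local mode to GRCm38 and deposited raw read counts for genes and 92 ERCC spike-ins over 225 cells, and a normalized signal for 199 cells, made with spike-in size factors centred within each run and with gene length. Of these normalized values, 98.4% equal the truncated count divided by the size factor, plus 1, over the length in kb, so that the floor, where no read was found, is 1 over the length, and 7.69% of values with reads are also at this floor. Spike-in totals by column name had rank correlations with the size factors of −0.22 in NXT0072, 0.09 in NXT0142 and 0.12 in NXT0143. The spike-in rows were therefore not used, and the spike-in correction of the authors could not be checked. The reason for these low values was not tested. No mapping was repeated.

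Counts, shares, means of log2(signal + 1) and partial rank correlations were computed with Python 3.11.15, pandas 2.3.3, numpy 2.4.6 and scipy 1.17.1. Cells were thinned without replacement to 500000 reads on genes (seed 42), which left 191 cells. In simulated cells of zeugopod NXT0143 with 3944 genes, the direction was recovered for all 200 genes given a change of 2 or 3 on the log2 scale. This used CPM in 1 group split into 2 parts, with changes well above the limit of 1. It therefore does not bear on the smaller differences between tissues reported here. Intervals of shares cover the sampling of cells only, and a count of 0 and the Poisson intervals cover counting error only. Named were all 9 members, the genes of fixed lists past a difference of 1 in both comparisons that share no cell (at most 4 a list), and the 3 genes most like each member where the mean correlation was at least 0.3; the partner genes and *Smad2*, *Smad3*, *Smad9*, *Twsg1* and *Nbl1* were named beyond this rule, the latter after their values were seen. The members and lists were chosen with earlier results of these data known. Alternatives comprised CPM, pseudocounts of 0.1 and 10, a value of 0 for genes without reads, thinning, other limits and filters and, added after seeing the data, leaving out the cell with most reads of a gene. Positions are those of GENCODE M21, and coding bases were read from its transcripts. The exons of *Bmpr1a* and *Smad5* each overlap those of 1 other gene, on the opposite strand for *Bmpr1a* and on the same strand for *Smad5*; neither gene is in the count table.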

Additional observations from a re-analysis of the deposited data

Results flagged for a closer look

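The 26 captured cells that were not retained lie outside the comparisons above, and they held 120 reads of the 9 genes, where a count of 0 would allow 3 reads. Of these, 58 were reads of *Bmpr2*, 29 of *Bmpr1a*, 18 of *Smad7*, 5 of *Bmpr1b*, 4 of *Acvr1*, 3 of *Smad1* and 1 each of *Smad5*, *Smad4* and *Smad6*. At least 5 reads of a member were found in 4 of the 26 cells, and 58 of the reads lay in 1 cell. These cells had 17 to 2926030 reads on genes, with a median of 25639.5. Summed over cells, the 9 genes made 25.5 CPM in the cells not retained and 1017 CPM in the retained ones. No groups of 4 to 10 samples exist in this design, and a difference of effects between the runs was not tested.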

How the results depend on the processing

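Over 7 alternatives, each difference of at least 1 named for a member kept its direction. Among the 7, leaving out cells with markers of other cell types removed no cell and so could not change a direction. Of the 7 members past the filter, those higher in the autopod by at least 1 numbered 5 with a pseudocount of 0.1 and 0 with 10 over all cells (3 as reported), 1 with 10 within NXT0143 (3), and 5 on CPM, 5 with 0.1 and 0 with 10 between NXT0072 and NXT0142 (3). Between autopod runs 2 were higher with 0.1 and in thinned cells (1) and 1 lower with 10 (2), and between zeugopod runs 1 was lower with 0.1 (0). Without the cell with most reads, *Bmpr2* fell to 0.96 in both comparisons that called it and *Smad5* to 0.96 between NXT0072 and NXT0142. With a limit of 2, the shares of genes higher and lower were 0.796% and 2.69% over all cells, 3.59% and 1.04% within NXT0143, 0.96% and 6.94% between NXT0072 and NXT0142, 6.49% and 2.08% between autopod runs and 0.041% and 1.06% between zeugopod runs. With every gene they were 2.83% and 6.26%, 10.9% and 5.17%, 3.27% and 12.3%, 13% and 6.70%, and 0.63% and 7.51% in the same order. A filter at 10% of cells gave 3.45% and 7.62% over all cells, 3.98% and 15.0% between NXT0072 and NXT0142, and 9.13% lower between zeugopod runs. The full set of receptor and Smads was found in 39% of autopod cells of NXT0072 and 19% of zeugopod cells of NXT0142 at 1 read, and in 12.5% and 1.79% after thinning. Leaving out cells with muscle, epithelial, endothelial, blood or macrophage markers removed no cell. No paired analysis was possible because the results come from no test. The values that involve autopod cells of NXT0143 rest on 17 cells, and 39.8% to 94.9% of the reads of *Acvr1* and *Smad6* lay in 1 cell of a group.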
